A study of Homo sapiens with 48 samples.

Results

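The difference between the carfilzomib responses of the multiple myeloma cell lines H-929 and RPMI was measured in RNA-seq read counts, as the log2 fold change after the drug in H-929 minus that in RPMI. It rests on 12 of the 48 libraries of the study, 3 in each of 4 groups, and was tested for 17923 of the 33892 rows (genes) in the count table, those with enough counts to test. Calls rest on edgeR's quasi-likelihood test with Benjamini-Hochberg adjustment, at an adjusted p under 0.05. Within these rows, 1110 genes were called in both lines and in opposite directions. They are described below with the genes that moved the same way in both lines but by unequal amounts.

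The study treated 8 established cancer cell lines, of colon, lung, pancreas and myeloma, with carfilzomib or with the solvent DMSO, and the HSP70 chaperones stand in its title. Carfilzomib is an irreversible proteasome inhibitor, and the proteasome breaks down proteins marked with ubiquitin. The 4 groups used here were H-929 with DMSO, H-929 with carfilzomib, RPMI with DMSO and RPMI with carfilzomib, each with biological replicates 1 to 3. Per the labels, exposure lasted 24 h and each line received carfilzomib at its IC50 for proteasome activity. The concentrations and the growth state of the cultures are not given in the labels used here, so unequal exposure and unequal response cannot be told apart. Each line is a single line of long-term culture with no normal plasma cell beside it, and RPMI is described by the labels only as multiple myeloma. The p-values measure the spread between replicate cultures of these lines, not the spread between patients or between myelomas.

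Myeloma cells are malignant plasma cells, which make and secrete large amounts of immunoglobulin and depend on the proteasome and on the endoplasmic reticulum (ER) to deal with misfolded protein. Unfolded protein in the ER triggers the unfolded protein response, whose sensors raise ER chaperones such as HSPA5 and the machinery that returns proteins to the cytosol for degradation. Phosphorylation of the translation factor eIF2 triggers the integrated stress response, in which the factor ATF4 raises genes for amino acid synthesis, amino acid transport and tRNA charging. The proteasome also degrades the inhibitor that holds NF-kB, a factor of inflammatory and survival genes, in the cytosol.

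Library totals were 14.6 to 18.9 M counts in H-929 with DMSO, 9.12 to 9.93 M in H-929 with carfilzomib, 17.6 to 36.6 M in RPMI with DMSO and 18.1 to 22 M in RPMI with carfilzomib. In every pair of replicates the counts differed beyond sampling noise (the lowest ratio of chi-square to its degrees of freedom was 6.03), so all 12 were kept as separate samples. The first 3 principal components separated the lines (81.5% of the variance), the treatments (10.5%) and the line-specific part of the treatment (4.11%). As a check of the labels, 10 plasma cell markers were all detected in each group. Their summed level ran from 12000 to 12700 CPM (counts scaled to equal library size) in H-929 with DMSO, 6250 to 6730 after carfilzomib, 6540 to 7570 in RPMI with DMSO and 1800 to 2190 after carfilzomib. Of 9 T and NK cell markers, which summed to 22.1 to 24.4 CPM in H-929 with DMSO and 18.7 to 24.1 CPM with carfilzomib, CD3E made up most, and in RPMI their sum was at most 1.57 CPM. CD3D was at 0 in H-929 with DMSO and in both RPMI groups, and CD2 in both RPMI groups. The 8 fibroblast and endothelial markers summed to 227 to 285 and 209 to 245 CPM in H-929, nearly all from PECAM1, and to 1.8 to 2.62 and 3.41 to 5.18 CPM in RPMI, with DCN at 0 in both RPMI groups. The part of other cells in these levels was not tested.

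The response difference was called for 6921 genes, 38.6% of those tested. It was higher in H-929 than in RPMI for 3616 genes (20.2%) and lower for 3305 (18.4%). With a difference of at least 2-fold, 2116 were higher and 936 lower, and with at least 4-fold, 1128 were higher and 308 lower. Without the filter on low counts the balance turned, with 2915 higher and 4677 lower of a larger number of rows. In the filtered rows, most of the calls were thus under 2-fold on the lower side and over 2-fold on the higher side. In H-929 alone carfilzomib raised 4952 genes (27.6%) and lowered 4654 (26%), and in RPMI it raised 4102 (22.9%) and lowered 4532 (25.3%).

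Genes rose in H-929 and fell in RPMI in 505 cases (2.82% of the rows tested) and fell in H-929 and rose in RPMI in 605 cases (3.38%). These sets were chosen by the values in the 2 lines, so their sizes are a description. The difference was called for every gene of both sets. Its adjusted p is thus no further evidence for genes taken from them, here or below. The genes that rose in H-929 moved further, with a median absolute log2 fold change of 1.04 in H-929 and 0.88 in RPMI, against 0.5 and 0.49 for the genes that fell there. At least 1.5-fold in both lines left 299 and 119 genes, at least 2-fold left 182 and 28, and at least 4-fold left 68 and 3. Just inside the threshold lay MRPL1 (log2 fold change -0.33 in H-929 and 0.49 in RPMI, adjusted p in H-929 = 0.0499 in edgeR). Just outside lay MRC1 (2.62 and -0.77, adjusted p in RPMI = 0.0501) and HAUS2 (-0.28 and 0.29, adjusted p in H-929 = 0.0501 in edgeR). A further 1964 genes rose in both lines, of which 709 also had a called difference, and 2591 fell in both, of which 1015 had one. Leaving out replicate 2 of all 4 groups lowered the count of genes that fell in H-929 and rose in RPMI to 368, and testing against a fold change of 1.5 left 131 and 30 genes.

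**Figure D1:**
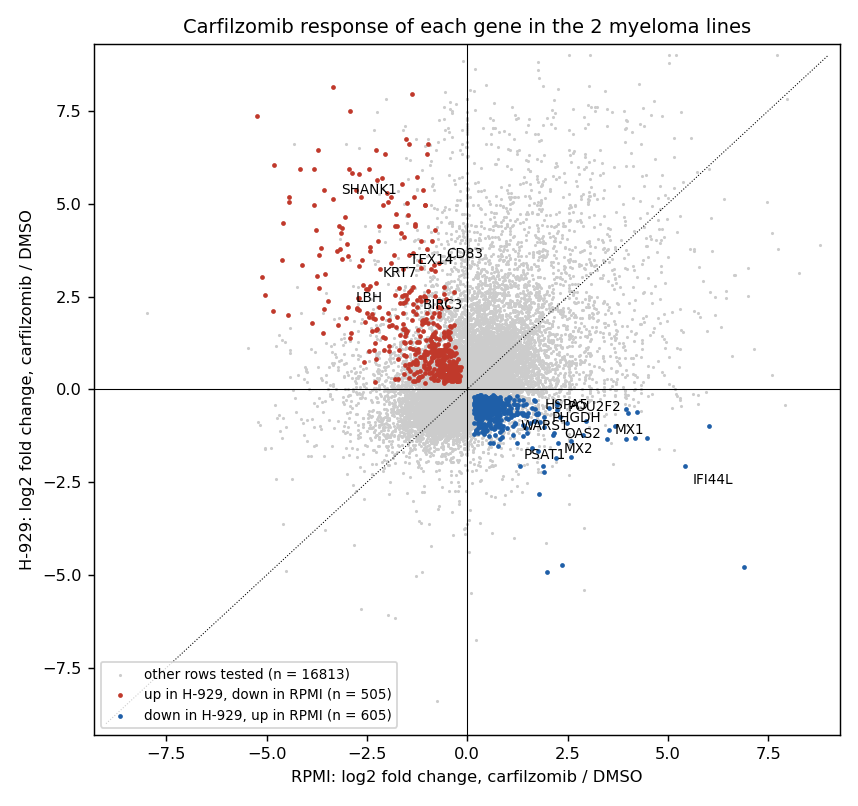
Log2 fold change after carfilzomib in RPMI (x axis) and in H-929 (y axis) for the 17923 rows tested, with 5 rows beyond 9 drawn at the axis limit and the dotted line marking equal responses. Red points are the 505 genes up in H-929 and down in RPMI, blue points the 605 genes down in H-929 and up in RPMI, and the red points reach further from the centre.

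Expression level, GC content and gene type moved with the direction of the difference. Among rows with a mean under 50 counts, 864 were called higher in H-929 and 182 lower, while among rows with a mean of 500 to 5000 counts 1267 were higher and 2227 lower. The median GC content of the longest transcript was 53.5% for the genes up in H-929 and down in RPMI, 43.3% for the opposite set and 48.1% for all rows tested. Across 5 bins of GC content with equal numbers of genes the median difference rose from -0.25 in the lowest to 0.27 in the highest, while the median log2 fold change went from -0.28 to 0.11 in H-929 and from -0.02 to -0.14 in RPMI. An offset for GC content, added after seeing the data, kept 416 of the 505 and 412 of the 605 genes. Of the genes up in H-929 and down in RPMI 86.5% were protein-coding, against 97.5% of the opposite set and 78.2% of all rows. Long intergenic RNAs had a median difference of 0.73 and antisense genes 0.69, against 0.03 for protein-coding genes. The use of strand in counting is not known here, so antisense rows are uncertain. The part of depth, GC content and RNA quality in these patterns was not tested.

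**Figure D2:**
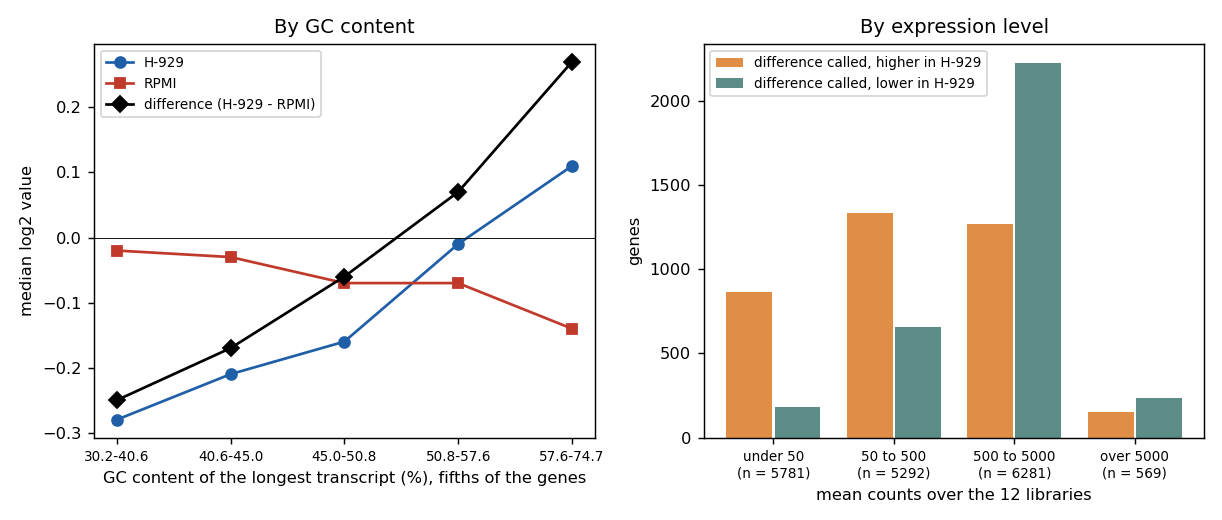
Left, median log2 fold change in H-929 and RPMI and their median difference (y axis) in 5 equal-sized bins of transcript GC content (x axis), over genes averaging 50 counts or more, and right, genes with a called difference (y axis) by mean counts over the 12 libraries (x axis). The median difference climbs from -0.25 to 0.27 with GC content, and calls higher in H-929 outnumber calls lower in H-929 (864 against 182) under 50 counts and are fewer from 500 counts up.

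Gene lists of stress, secretory and identity pathways were set beside these backgrounds, with 615 list genes tested. Over all rows the difference was called higher in H-929 for 20.2% and lower for 18.4%. The opposite sets held 2.82% (up in H-929) and 3.38% (down in H-929). Carfilzomib raised 27.6% and lowered 26% in H-929, and raised 22.9% and lowered 25.3% in RPMI. Of the 605 genes that fell in H-929 and rose in RPMI 61 were in the lists, and of the 505 of the opposite set 15 were. Over all 17923 rows tested 615 were. The share of the 605 thus lay above that of all rows, and the share of the 505 slightly below it. These shares are a description, as the lists were chosen with earlier results of these data known. All rows are also not a like background. Of the 605, 97.5% were protein-coding, with median counts of 1270, against 78.2% and 234 for all rows. The interferon, integrated stress response and tRNA synthetase lists had the lowest median differences, -2.05, -1.53 and -1.44, and the AP-1 list had the highest of the 26 pathway and identity lists, 1.12, while the median over all rows was 0.07. With the GC offset these medians were -2.08, -1.49, -1.34 and 0.98.

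**Figure D3:**
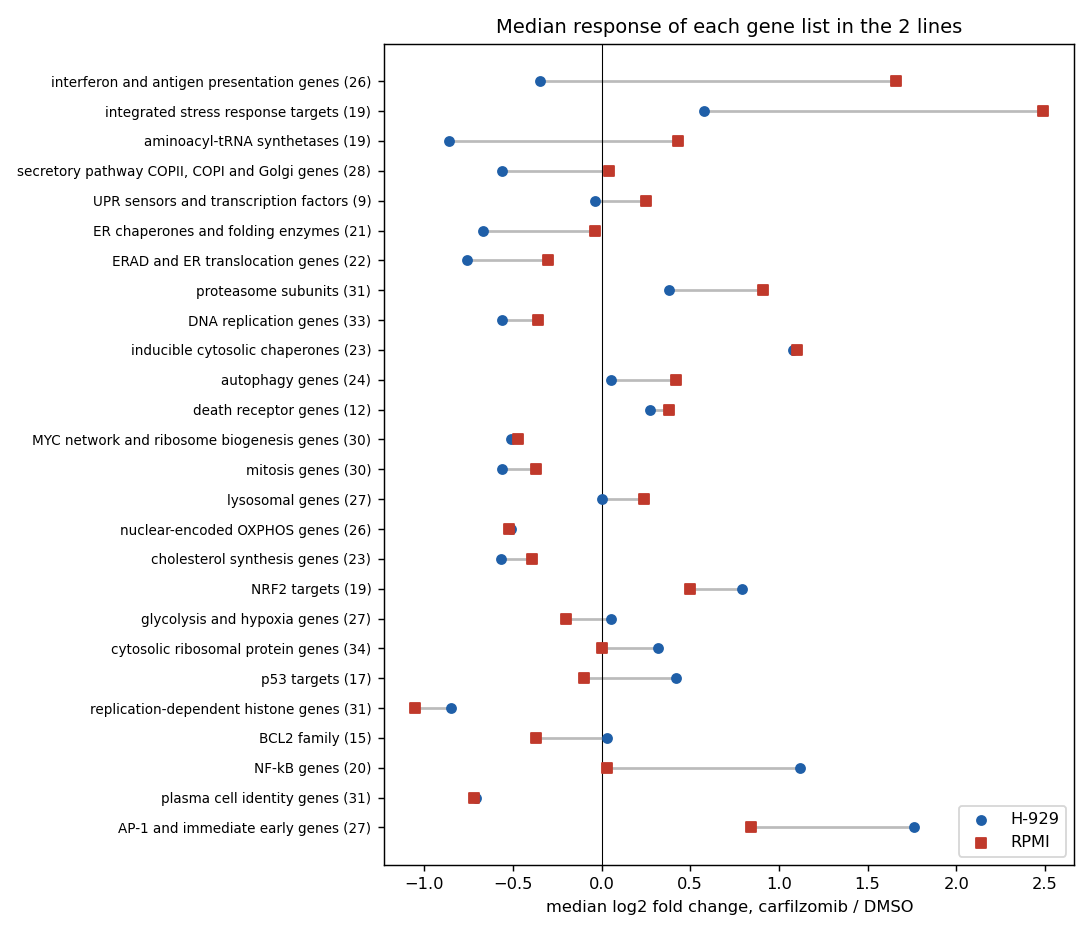
Median log2 fold change after carfilzomib (x axis) of each gene list (y axis, number of genes tested in brackets, ordered by the median difference) in H-929 (blue circles) and RPMI (red squares). The interferon list lies at -0.35 in H-929 and 1.66 in RPMI, the tRNA synthetase list at -0.86 and 0.43, and the AP-1 list at 1.76 and 0.84.

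Targets of the integrated stress response rose in RPMI and split in H-929. In RPMI 18 of 19 rose and none fell, while in H-929 11 rose and 7 fell. The difference was called lower in H-929 for 16 of the 19 and higher for none (18.4% and 20.2% of all rows), and 6 of the list fell in H-929 and rose in RPMI (3.38% of all rows). The median log2 fold change was 0.58 in H-929 and 2.49 in RPMI, against 0.07 and 0 over all rows.

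PHGDH, the enzyme that opens the serine synthesis pathway, stood at 171, 172 and 143 CPM in H-929 with DMSO and at 83.6, 67.3 and 88.9 CPM with carfilzomib. In RPMI it stood at 36.8, 32.3 and 31.5 CPM with DMSO and at 139, 128 and 114 CPM with carfilzomib. The groups did not overlap within either line, and the level in treated RPMI lay above that in treated H-929 although the untreated order was the reverse. The log2 fold change was -1.02 ± 0.10 (SE) in H-929 and 1.92 ± 0.11 in RPMI. PSAT1, which carries out the next step of serine synthesis, went from 164, 171 and 133 to 65.7, 50.7 and 55.7 CPM in H-929 and from 67.6, 53.3 and 58 to 148, 137 and 136 CPM in RPMI. Here too the groups were apart within each line and their order was inverted, with log2 fold changes of -1.44 ± 0.11 and 1.23 ± 0.10.

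The mitochondrial folate enzymes MTHFD2 and ALDH1L2 moved in the same pair of directions. MTHFD2 fell in H-929 from 378 ± 26.5 to 192 ± 4.99 CPM (mean ± SD, n = 3) and rose in RPMI from 385 ± 1.15 to 475 ± 28.4 CPM. ALDH1L2 fell from 562 ± 14.7 to 232 ± 21.2 CPM in H-929 and rose from 7.98 ± 1.11 to 14.8 ± 1.5 CPM in RPMI, where it was far less abundant. SLC3A2, the heavy chain of amino acid transporters at the cell surface, fell from 378 ± 4.31 to 265 ± 13.6 CPM and rose from 243 ± 2.29 to 740 ± 36.6 CPM. CEBPG, a partner of ATF4 on DNA, fell from 68.2 ± 6.32 to 52.1 ± 3.11 CPM and rose from 36.1 ± 4.3 to 80.6 ± 4.03 CPM.

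Other members of the list rose in both lines by unequal amounts. SLC7A11, the cystine transporter, rose from 23 ± 4.71 to 34.5 ± 2.7 CPM in H-929 and from 42.2 ± 2.76 to 271 ± 6.63 CPM in RPMI, a difference of -2.11 ± 0.15 on the log2 scale (adjusted p = 7.9e-09 in edgeR). TRIB3, a pseudokinase induced by ATF4, rose from 25.5 ± 3.3 to 33.5 ± 10.3 CPM and from 71.3 ± 5.22 to 416 ± 33.5 CPM, a difference of -2.15 ± 0.20 (adjusted p = 1.41e-07). ATF4 itself was at 842, 836 and 755 CPM with DMSO and 799, 828 and 878 CPM with carfilzomib in H-929, where the groups overlapped and no change was called (adjusted p = 0.599). In RPMI it rose from 400, 388 and 385 to 939, 981 and 899 CPM, and the responses differed by -1.22 ± 0.09 (adjusted p = 9.58e-09). DDIT3, the pro-apoptotic factor CHOP of the same pathway, rose alike by its point estimates, 3.22 ± 0.11 in H-929 and 3.23 ± 0.11 in RPMI, and its difference of -0.02 ± 0.14 was not called (adjusted p = 0.949).

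Aminoacyl-tRNA synthetases, the enzymes that load amino acids onto tRNAs, fell in H-929 for 17 of 19 members and rose for none. In RPMI 11 rose and 7 fell. The difference was called lower in H-929 for 15 and higher for none (18.4% and 20.2% of all rows). Of the 19, 10 fell in H-929 and rose in RPMI (3.38% of all rows). Of these 10, CARS1 has an identifier shared by several rows and is uncertain.

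WARS1, the tryptophan enzyme, was at 302, 317 and 271 CPM with DMSO and at 122, 124 and 132 CPM with carfilzomib in H-929. In RPMI it went from 79.7, 81 and 80.1 to 190, 179 and 166 CPM. Groups were apart in both lines, and the log2 fold changes were -1.24 ± 0.07 and 1.15 ± 0.07. GARS1, the glycine enzyme, fell from 691, 708 and 589 to 346, 345 and 351 CPM in H-929 and rose from 374, 377 and 369 to 876, 867 and 791 CPM in RPMI. The changes were -0.93 ± 0.07 and 1.18 ± 0.07, so that treated RPMI libraries held more GARS1 than untreated H-929 libraries. The enzymes for alanine (AARS1, -1.05 and 0.58), isoleucine (IARS1, -0.80 and 0.73), methionine (MARS1, -0.65 and 0.98), asparagine (NARS1, -0.97 and 0.50), serine (SARS1, -0.39 and 0.77), threonine (TARS1, -1.19 and 0.28) and tyrosine (YARS1, -1.01 and 0.43) moved in the same opposite directions. Their response differences ran from -1.63 for AARS1 and MARS1 to -1.16 for SARS1 (adjusted p at most 1.48e-07 for these 7 in edgeR). As members of the opposite set they were chosen by the same values.

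The promoters of the synthetases were searched because these genes moved together. The motif TGATGNAA on either strand, the C/EBP-ATF response element to which ATF4 binds, was in 6 of the 16 synthetase promoters matched by symbol in RefSeq (37.5%), against 3.67% of all 27305 RefSeq promoters of the same length and 1.92% of those of the rows tested. The 6 were AARS1, CARS1, IARS1, MARS1, NARS1 and TARS1, all among the genes that fell in H-929 and rose in RPMI. WARS1, GARS1 and SARS1 held no match in this window. In the integrated stress response list the motif was in 4 of 16 matched promoters (25%). Of those genes, ASNS, ATF3 and CHAC1 rose in both lines, and SLC3A2 fell in H-929 and rose in RPMI. The promoters of AARS1 (chr16:70289457-70289756, minus strand), MARS1 (chr12:57487818-57488117, plus strand) and TARS1 (chr5:33440715-33441014, plus strand) are shown as examples, from RefSeq on GRCh38.p14, 5′ to 3′ along the gene from 250 bases before to 50 after the start of transcription, with the motif in capitals.
AARS1: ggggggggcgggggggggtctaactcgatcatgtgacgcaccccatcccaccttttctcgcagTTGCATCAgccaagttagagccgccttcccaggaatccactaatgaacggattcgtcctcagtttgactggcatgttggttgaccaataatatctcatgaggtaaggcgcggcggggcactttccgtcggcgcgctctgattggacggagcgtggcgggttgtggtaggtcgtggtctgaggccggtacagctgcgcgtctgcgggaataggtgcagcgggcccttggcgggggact
MARS1: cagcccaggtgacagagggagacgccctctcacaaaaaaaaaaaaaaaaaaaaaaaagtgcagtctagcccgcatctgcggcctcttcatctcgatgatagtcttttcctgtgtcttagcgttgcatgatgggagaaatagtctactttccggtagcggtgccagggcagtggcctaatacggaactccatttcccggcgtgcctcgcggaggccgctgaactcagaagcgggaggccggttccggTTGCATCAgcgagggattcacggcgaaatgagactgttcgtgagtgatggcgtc
TARS1: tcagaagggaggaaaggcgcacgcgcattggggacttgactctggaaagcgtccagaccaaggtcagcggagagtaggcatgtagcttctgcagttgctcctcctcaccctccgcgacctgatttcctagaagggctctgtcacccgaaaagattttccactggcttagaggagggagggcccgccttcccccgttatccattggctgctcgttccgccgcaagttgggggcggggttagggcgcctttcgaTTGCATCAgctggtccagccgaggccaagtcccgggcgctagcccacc
All 3 matches have the same 8 bases, TTGCATCA, which is the reverse complement of the motif. No printed match overlapped another of the motifs searched. A match is a description of the sequence and was not tied to binding.

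ER chaperones and folding enzymes fell in H-929 for 16 of 21 members and rose for 2, while in RPMI 7 rose and 7 fell. A lower response in H-929 was called for 13 and a higher one for 3 (18.4% and 20.2% of all rows). Of the list, 5 fell in H-929 and rose in RPMI (3.38% of all rows). HSPA5, the HSP70 of the ER lumen known as BiP, was at 1050, 1150 and 999 CPM with DMSO and at 704, 678 and 628 CPM with carfilzomib in H-929. In RPMI it was at 493, 504 and 523 CPM with DMSO and at 1810, 1520 and 1800 CPM with carfilzomib. Every treated RPMI library exceeded every other library, and the log2 fold changes were -0.67 ± 0.08 and 1.76 ± 0.08, a difference of -2.42 ± 0.11 (adjusted p = 3.25e-11 in edgeR). HSP90B1, the HSP90 of the ER, fell from 2350, 2410 and 2460 to 1470, 1490 and 1320 CPM in H-929 and rose from 1410, 1410 and 1390 to 2040, 2170 and 1940 CPM in RPMI. The groups were apart in both lines, with a difference of -1.30 ± 0.09 (adjusted p = 4.04e-09).

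The J-domain partners of HSPA5 made up the rest of that set. DNAJB9 fell from 88.9 ± 3.03 to 57.7 ± 6.12 CPM in H-929 and rose from 71.6 ± 6.13 to 136 ± 9.62 CPM in RPMI. DNAJC3, which also inhibits the eIF2 kinases, changed by -0.67 and 0.71, and DNAJB11 by -0.87 and 0.56. HYOU1, the nucleotide exchange factor of the ER, is uncertain because its identifier stands on several rows. It had a difference of -2.56 ± 0.80 (adjusted p = 0.0162) that was not called without replicate 2 of H-929 with DMSO (-1.54, adjusted p = 0.0619) or without replicate 3 of RPMI with carfilzomib (-1.67, adjusted p = 0.087).

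The ER stress response element, CCAAT and CCACG with 9 bases between them, searched on both strands, was in 6 of 20 matched promoters of the ER chaperone list (30%), against 0.0806% of all RefSeq promoters. HSPA5 and HSP90B1 were the members of the opposite set that held it, and DNAJB9, DNAJB11 and DNAJC3 held no match in the window. The other holders were not in that set. CALR fell and CRELD2 rose in H-929 with no call in RPMI, CANX was called in neither line, and ERO1B rose in both. The promoters of HSPA5 (chr9:125241294-125241593, minus strand) and HSP90B1 (chr12:103930160-103930459, plus strand) are printed from RefSeq on GRCh38.p14. They run from 250 bases before to 50 after the start, with the element in capitals.
HSPA5: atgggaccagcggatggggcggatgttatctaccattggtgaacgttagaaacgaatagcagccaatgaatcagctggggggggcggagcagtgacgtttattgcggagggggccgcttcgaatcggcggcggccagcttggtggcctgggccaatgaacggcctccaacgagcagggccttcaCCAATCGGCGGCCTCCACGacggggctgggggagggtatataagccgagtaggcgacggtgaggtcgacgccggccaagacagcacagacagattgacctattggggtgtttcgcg
HSP90B1: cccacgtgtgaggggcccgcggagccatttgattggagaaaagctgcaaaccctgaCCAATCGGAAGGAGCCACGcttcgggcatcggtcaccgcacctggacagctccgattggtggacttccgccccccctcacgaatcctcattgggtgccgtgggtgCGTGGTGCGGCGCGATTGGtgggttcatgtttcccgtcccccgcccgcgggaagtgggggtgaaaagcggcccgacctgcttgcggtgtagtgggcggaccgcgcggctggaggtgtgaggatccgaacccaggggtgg
HSP90B1 has 2 exact matches, the one nearer the start on the opposite strand, and HSPA5 has 1. Sequences that depart from this pattern by some bases were not counted.

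Genes of ER-associated degradation and of translocation into the ER fell in H-929 for 19 of 22 members and rose for none, and in RPMI 6 rose and 13 fell. Their response difference was lower in H-929 for 15 and higher for 1 (18.4% and 20.2% of all rows). SEL1L, the scaffold of the HRD1 ubiquitin ligase complex, was at 368, 397 and 355 CPM with DMSO and at 220, 224 and 218 CPM with carfilzomib in H-929. It went from 145, 136 and 137 to 270, 283 and 265 CPM in RPMI. Both lines kept their groups apart, and the difference was -1.73 ± 0.09 (adjusted p = 1.59e-10). SYVN1, the ligase of that complex, fell slightly in H-929, from 186 ± 3.47 to 163 ± 8.32 CPM, and rose from 48.3 ± 3.6 to 99.8 ± 5.23 CPM in RPMI. DERL1, a channel component, changed by -0.91 and 0.32, and SRPRB, a subunit of the signal recognition particle receptor, by -1.13 and 0.23.

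Among 9 sensors and factors of the unfolded protein response, the difference was called lower in H-929 for 6 and higher for 1 (18.4% and 20.2% of all rows). ATF6, a membrane-bound factor that is cut loose in ER stress, fell in H-929 (-0.34 ± 0.07) and rose in RPMI (0.25 ± 0.06). MBTPS2, the protease that makes the second cut in ATF6, fell in both lines, by 1.71 and 0.53 on the log2 scale. XBP1, the plasma cell factor spliced by the sensor IRE1, was at 2250 ± 168 and 1350 ± 60.9 CPM in H-929 and at 680 ± 64.9 and 464 ± 31.4 CPM in RPMI. The difference between its falls of -0.73 and -0.55 was not called (-0.18 ± 0.11, adjusted p = 0.202), though fits with no filter and of all 48 libraries called it. These counts do not separate spliced from unspliced XBP1.

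Coat and Golgi genes of the secretory pathway had the difference called lower in H-929 for 22 of 28 members and higher for none (18.4% and 20.2% of all rows). In H-929 21 fell and 1 rose, and in RPMI 11 rose and 8 fell. Of the 28, 8 fell in H-929 and rose in RPMI (3.38% of all rows). COPA, a subunit of the COPI coat that returns vesicles to the ER, fell from 541 ± 41.7 to 356 ± 6.22 CPM and rose from 391 ± 4.89 to 615 ± 13.5 CPM, a difference of -1.26 ± 0.09 (adjusted p = 5.22e-09). The other COPI genes of that set, COPB1 and COPZ1, had differences of -1.24 and -1.33. In the COPII coat, which carries cargo out of the ER, SEC13 had a difference of -0.85 and SEC24D of -1.01, and SEC22B, a vesicle fusion protein, had one of -1.16. LMAN1, a cargo receptor for glycoproteins, fell from 862 ± 20.1 to 376 ± 22 CPM in H-929, while its rise in RPMI, from 989 ± 63.1 to 1100 ± 27.4 CPM, lay near the threshold (0.16 ± 0.06, adjusted p = 0.0468).

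**Figure D4:**
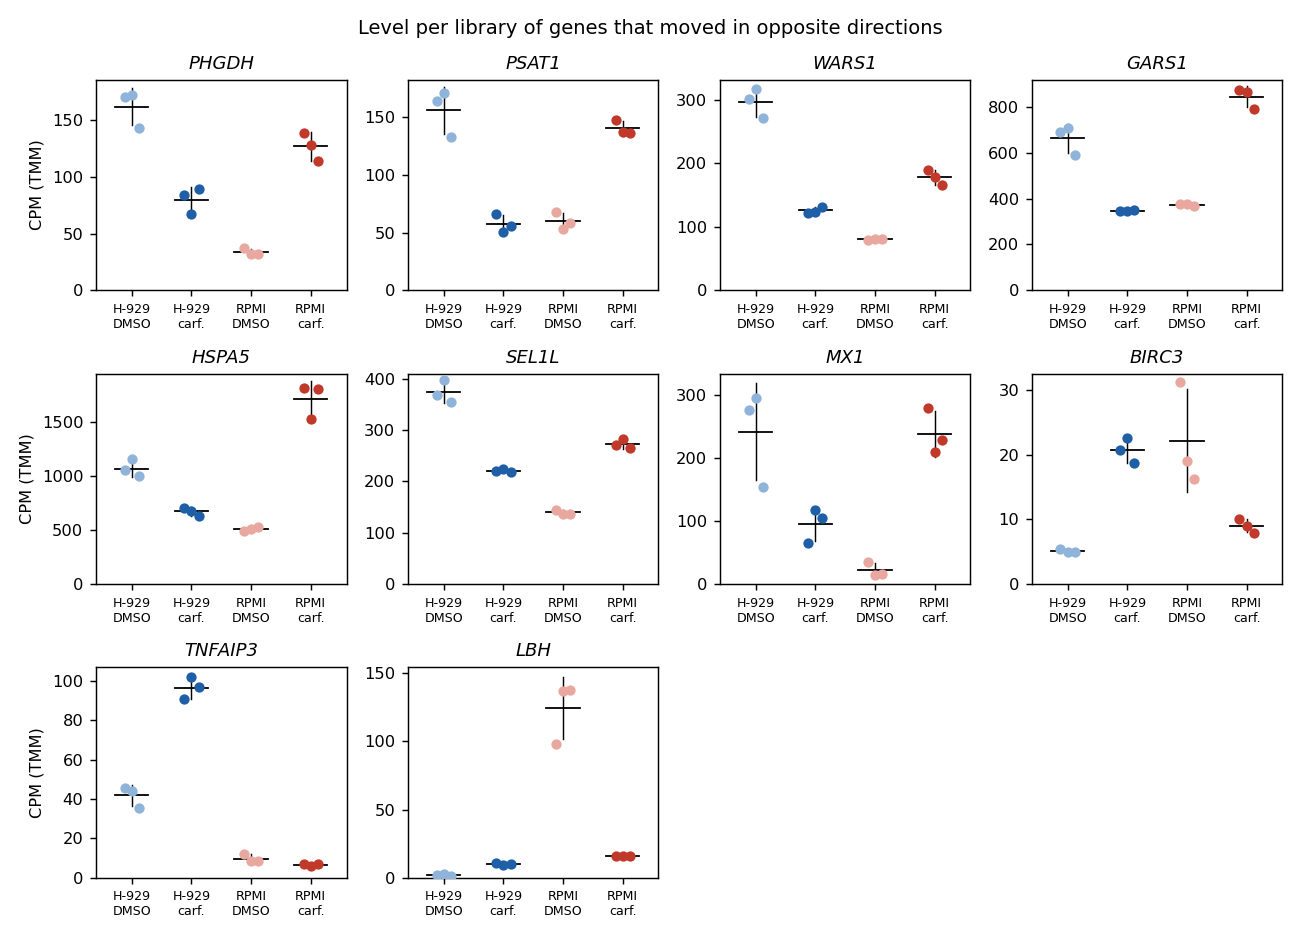
Level in CPM (y axis, each panel on its own linear scale from 0) of 10 genes that moved in opposite directions, with 1 point per library, a horizontal bar at the mean of each group and a vertical bar of 1 SD (n = 3). The first 7 panels fall in H-929 (blue) and rise in RPMI (red), as for HSPA5 from 1050, 1150 and 999 to 704, 678 and 628 CPM and from 493, 504 and 523 to 1810, 1520 and 1800 CPM, and BIRC3, TNFAIP3 and LBH do the reverse.

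Interferon-stimulated and antigen presentation genes had the lowest median difference of all lists. In RPMI 19 of 26 rose and 3 fell, and in H-929 6 rose and 8 fell. The difference was called lower in H-929 for 16 and higher for 4 (18.4% and 20.2% of all rows), and 6 genes fell in H-929 and rose in RPMI (3.38%). MX1, an antiviral GTPase, was at 276, 296 and 154 CPM with DMSO and at 64.6, 117 and 104 CPM with carfilzomib in H-929. In RPMI it was at 35.6, 14.6 and 15.9 CPM with DMSO and at 279, 209 and 228 CPM with carfilzomib. No groups overlapped within a line, so that untreated H-929 and treated RPMI held similar levels of MX1, and its log2 fold changes were -1.35 ± 0.27 and 3.49 ± 0.29.

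OAS2, a sensor of double-stranded RNA, fell from 167, 177 and 108 to 44.2, 58.8 and 62.6 CPM in H-929 and rose from 20.3, 15 and 13.5 to 89.9, 64.1 and 74.4 CPM in RPMI. MX2 had log2 fold changes of -1.85 ± 0.27 and 2.22 ± 0.25, and OAS1 of -0.69 ± 0.18 and 0.46 ± 0.16. IFI44L, at 0.196 to 3.02 CPM in H-929, fell by 2.07 on the log2 scale there on 12 to 57 counts per DMSO library and 2 to 7 per carfilzomib library, and rose by 5.43 ± 0.62 in RPMI.

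Replicate 3 of H-929 with DMSO was the lowest of its group for MX1, MX2, OAS1, OAS2, IFI44 and IFI44L. Without it the difference was called lower for 17 of the 26 genes, 8 genes fell in H-929 and rose in RPMI, and the list median was -2.23. Over all fits that left out a single library, 15 to 17 genes were called lower and 5 to 8 fell in H-929 and rose in RPMI. The list median ran from -2.23 to -1.91. IFIT2, an antiviral RNA-binding protein, rose in both lines, from 4.12 ± 1.11 to 23.3 ± 0.822 CPM in H-929 and from 1.4 ± 0.335 to 98.2 ± 12 CPM in RPMI, a difference of -3.70 ± 0.26. IFI44 was at 5.17 ± 3.66 and 5.86 ± 3.14 CPM in H-929 and rose from 1.27 ± 0.393 to 39.4 ± 2.96 CPM in RPMI. The interferon-stimulated response element, 2 copies of GAAA with 2 bases between them, on either strand, was in 12 of 17 matched promoters (70.6%), against 3.65% of all RefSeq promoters and 3.02% of the rows tested. Among members of the opposite set with a matched promoter, MX1 and the scarcer IFI44L held one and OAS1 did not. MX2 and OAS2 had no matched promoter to search. That of MX1 (chr21:41420308-41420607, plus strand, RefSeq, GRCh38.p14) is shown with its match in capitals.
MX1: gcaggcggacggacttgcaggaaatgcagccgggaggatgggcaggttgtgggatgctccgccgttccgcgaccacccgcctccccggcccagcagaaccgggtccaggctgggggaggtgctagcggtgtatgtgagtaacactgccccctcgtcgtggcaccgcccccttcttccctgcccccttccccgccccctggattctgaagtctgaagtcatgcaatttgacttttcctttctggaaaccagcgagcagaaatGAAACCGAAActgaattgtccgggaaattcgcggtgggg
Its single match starts 11 bases after the start of transcription.

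In the NF-kB list more genes were called higher than lower in H-929. There 11 of 20 rose and 4 fell, and in RPMI 7 rose and 7 fell. The difference was called higher in H-929 for 9 and lower for 4 (20.2% and 18.4% of all rows). Of the 20, 5 genes were up in H-929 and down in RPMI and 1 the reverse (2.82% and 3.38% of all rows). BIRC3, a ubiquitin ligase that restrains cell death and the noncanonical NF-kB pathway, was at 5.38, 4.88 and 4.9 CPM with DMSO and at 20.7, 22.7 and 18.7 CPM with carfilzomib in H-929. In RPMI it went from 31.3, 19 and 16.3 to 10.1, 9.06 and 7.97 CPM. The groups were apart in both lines, and the log2 fold changes were 2.03 ± 0.21 and -1.29 ± 0.20. TNFAIP3, the feedback inhibitor A20, rose from 45.7, 44.1 and 35.6 to 90.7, 102 and 96.7 CPM in H-929 and fell from 12.3, 8.36 and 8.58 to 6.87, 5.88 and 6.89 CPM in RPMI. Its difference was 1.76 ± 0.19 (adjusted p = 1.41e-06).

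The inhibitor gene NFKBIA, itself an NF-kB target, rose in H-929 from 77.9, 91.4 and 94.9 to 521, 588 and 682 CPM. In RPMI it was at 42.4, 34.5 and 33.2 CPM with DMSO and 46.3, 40.6 and 44.2 CPM with carfilzomib, where the groups overlapped and no change was called (adjusted p = 0.0586), and the responses differed by 2.50 ± 0.15 (adjusted p = 1.04e-09). NFKBIE, a further inhibitor, rose from 7.39 ± 1.64 to 24.2 ± 4.27 CPM and fell from 20.9 ± 2.33 to 15.3 ± 1.24 CPM. ICAM1, an adhesion molecule, rose from 82.1 ± 4.18 to 162 ± 7.83 CPM and fell from 195 ± 9.79 to 154 ± 3.77 CPM. CD83, a surface marker of activated B and dendritic cells, rose from 0.734 ± 0.286 to 7.97 ± 1.9 CPM and fell from 21.8 ± 1.92 to 13.3 ± 3.06 CPM. BIRC2, the close relative of BIRC3 on the same chromosome arm, went against it, falling by 0.39 in H-929 and rising by 0.40 in RPMI on the log2 scale. CXCL8, a chemokine and NF-kB target, rose in both lines and far more in RPMI, from 3.06 ± 1.7 to 112 ± 14.5 CPM against 1.15 ± 0.197 to 5.21 ± 0.806 CPM in H-929.

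The NF-kB motif, GGGA and TTTCC with 1 base between them, on either strand, was in 4 of 17 matched promoters of this list (23.5%), against 0.579% of all RefSeq promoters. These were NFKB1, NFKBIA, REL and TNFAIP3, of which TNFAIP3 was in the set up in H-929 and down in RPMI. Its promoter (chr6:137867009-137867308, plus strand, RefSeq, GRCh38.p14) is printed with the match in capitals.
TNFAIP3: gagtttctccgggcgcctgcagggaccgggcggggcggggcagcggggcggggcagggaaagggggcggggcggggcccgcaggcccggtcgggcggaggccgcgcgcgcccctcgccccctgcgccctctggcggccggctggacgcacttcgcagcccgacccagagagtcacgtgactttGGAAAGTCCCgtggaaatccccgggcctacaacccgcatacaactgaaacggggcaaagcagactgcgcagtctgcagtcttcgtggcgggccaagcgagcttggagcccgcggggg
Of the others of that set, BIRC3, CD83 and ICAM1 held no match in the window, and NFKBIE had no matched promoter to search.

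Immediate early and AP-1 genes had the highest median difference of the 26 pathway and identity lists. Of 27, 17 were called higher in H-929 and 3 lower (20.2% and 18.4% of all rows), with medians of 1.76 in H-929 and 0.84 in RPMI. None was in an opposite set (2.82% and 3.38% of all rows). DUSP1, a phosphatase of stress kinases, rose in H-929 from 43.4 ± 1.5 to 251 ± 20.6 CPM, and in RPMI its libraries, at 168, 127 and 87.6 CPM with DMSO and 115, 107 and 112 CPM with carfilzomib, overlapped. The difference was 2.71 ± 0.21 (adjusted p = 1.92e-08). KLF4, a zinc finger factor, rose in both lines, by 5.27 ± 0.24 in H-929 and 2.88 ± 0.24 in RPMI. The difference of EGR2, 2.58 ± 0.83 (adjusted p = 0.0196), rested on 1 to 8 counts per RPMI library and was not called without replicate 1 of RPMI with DMSO (1.92, adjusted p = 0.0996), replicate 1 of RPMI with carfilzomib (adjusted p = 0.0506) or replicate 2 of RPMI with carfilzomib (2.26, adjusted p = 0.0528).

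Genes of p53 and of the BCL2 family were also called higher in H-929 more often than lower, 8 against 1 of 17 and 8 against 1 of 15, with BAX and BBC3 in both lists. Over all rows 20.2% were called higher and 18.4% lower. BAX, which forms pores in the mitochondrial membrane, rose from 25.7, 26.2 and 27.6 to 46.3, 46.3 and 43.2 CPM in H-929 and fell from 22.7, 22.8 and 21 to 18.7, 16.1 and 16.8 CPM in RPMI. The groups were apart in both lines and the difference was 1.14 ± 0.14 (adjusted p = 3.63e-06). BTG2, an antiproliferative p53 target, rose from 357 ± 41.7 to 483 ± 33.8 CPM and fell from 144 ± 6.48 to 69.3 ± 4.91 CPM. BBC3, the BH3-only protein PUMA, rose in both lines, from 9.13 ± 1.31 to 59.8 ± 9.65 CPM in H-929 and from 11.7 ± 1.69 to 22.4 ± 2.58 CPM in RPMI. The BH3-only genes BMF and BCL2L11 fell in RPMI, by 1.98 and 0.91 on the log2 scale, and were not called in H-929 (-0.21 and 0.17), with differences of 1.78 ± 0.18 and 1.07 ± 0.11. Of the death receptors for TRAIL, TNFRSF10A fell from 52.6 ± 1.46 to 39.8 ± 1.81 CPM in H-929 and rose from 75 ± 3.74 to 124 ± 1.88 CPM in RPMI.

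Proteasome genes rose in most cases in both lines, and further in RPMI. Of 31 proteasome subunits, 21 rose and 2 fell in H-929, and 28 rose and none fell in RPMI. Responses were called lower in H-929 for 21 and higher for none (18.4% and 20.2% of all rows), with medians of 0.38 and 0.91. PSMA4 and PSMD7, a core and a regulatory subunit, were those that fell in H-929 and rose in RPMI. PSMA4 was at 132, 144 and 129 CPM with DMSO and 115, 119 and 93.5 CPM with carfilzomib in H-929, and went from 130, 137 and 142 to 236, 239 and 231 CPM in RPMI. Their differences were -1.09 ± 0.11 and -0.95 ± 0.08. NFE2L1, the factor that restores proteasome genes, rose by 0.73 ± 0.07 in H-929 and 1.37 ± 0.07 in RPMI. PSMB5, the subunit to which carfilzomib binds, rose from 42.5 ± 2.56 to 51.9 ± 7.27 CPM and from 86.9 ± 2.42 to 137 ± 8.18 CPM. Its difference of -0.36 ± 0.13 (adjusted p = 0.0284) was not called without, in turn, replicate 1 or 3 of H-929 with DMSO, replicate 3 of H-929 with carfilzomib, replicate 2 of RPMI with DMSO or replicate 1 of RPMI with carfilzomib.

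Inducible cytosolic chaperones rose in both lines, 16 of 23 in H-929 and 18 in RPMI, with medians of 1.08 and 1.10. The difference was called higher in H-929 for 5 and lower for 11 (20.2% and 18.4% of all rows). The summed counts of HSPA1A and HSPA1B, near-identical genes of the inducible HSP70, rose from 0.507 ± 0.296 to 408 ± 49.1 CPM in H-929 and from 2.32 ± 1.15 to 514 ± 85.5 CPM in RPMI. The treated levels overlapped between the lines, and the difference of 1.88 ± 0.48 (adjusted p = 0.00491) goes with DMSO levels of 5 to 16 counts per H-929 library and 20 to 95 per RPMI library. It was not called in a fit of all 48 libraries (1.79, adjusted p = 0.2). DNAJB1, the J-domain partner of HSP70, rose from 46.2 ± 2.29 to 1240 ± 70.7 CPM and from 153 ± 5.28 to 1100 ± 194 CPM, a difference of 1.90 ± 0.14 (adjusted p = 9.09e-09). HSPB1, a small heat shock protein, had a difference of -1.72 ± 0.14 in the other direction. HSPE1, the mitochondrial co-chaperonin, was the member that moved in opposite directions, from 9.21 ± 1.36 to 24 ± 3.14 CPM in H-929 and from 170 ± 3.45 to 126 ± 7.97 CPM in RPMI. Its partner HSPD1, which shares a promoter region with it, rose in both lines (0.49 and 0.67) and was chosen after its values were seen.

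In the autophagy list 9 of 24 were called lower in H-929 and 2 higher (18.4% and 20.2% of all rows). GABARAPL1, a tag of autophagosome membranes, rose from 13.8 ± 2.48 to 43.7 ± 2.17 CPM in H-929 and from 3.94 ± 0.471 to 98.5 ± 2.7 CPM in RPMI, a difference of -2.98 ± 0.17 (adjusted p = 5.33e-10). ATG13, WIPI1 and the cargo receptor NBR1 fell in H-929 and rose in RPMI, with log2 fold changes of -0.54 and 0.46, -0.40 and 0.63, and -0.44 and 0.38. HMOX1, the heme-degrading target of the factor NRF2, rose from 17.6 ± 1.16 to 105 ± 11.1 CPM and from 87.8 ± 37 to 2120 ± 268 CPM, a difference of -1.99 ± 0.31 (adjusted p = 5.43e-05). The NRF2 list as a whole had 7 called in each direction of 19.

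Cytosolic ribosomal protein genes had the difference called higher in H-929 for 21 of 34 and lower for 3 (20.2% and 18.4% of all rows). In H-929 22 rose and 5 fell, and in RPMI 2 rose and 5 fell, with medians of 0.32 and 0. RPL35 was the member of an opposite set, rising from 1120, 1250 and 1020 to 1800, 1840 and 1880 CPM in H-929 and falling from 1200, 1180 and 1110 to 942, 961 and 889 CPM in RPMI. Many ribosomal protein genes have near-identical pseudogenes, so shares of their reads are uncertain. Leaving out single libraries gave 14 to 22 of these genes called higher.

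Among plasma cell identity genes most fell in both lines, 23 of 31 in H-929 and 19 in RPMI. The difference was called higher in H-929 for 14 and lower for 6 (20.2% and 18.4% of all rows). Of the 31, 4 fell in H-929 and rose in RPMI (3.38% of all rows). POU2AF1, POU2F2 and SLAMF7, given next, are on the less frequent, lower side. POU2AF1, a B-cell coactivator of octamer-binding factors, went from 515, 494 and 582 to 235, 268 and 241 CPM in H-929 and from 72.3, 76.8 and 77.3 to 110, 109 and 103 CPM in RPMI. The groups were apart in each line, in opposite directions. Its partner factor POU2F2 fell from 53.9 ± 4.4 to 32.4 ± 6.2 CPM in H-929 and was at 2 to 12 counts per DMSO library and 11 to 38 per carfilzomib library in RPMI. SLAMF7, the surface target of elotuzumab, fell from 344 ± 25.5 to 256 ± 3.2 CPM and rose from 9.24 ± 1.34 to 15.1 ± 1.1 CPM. GPRC5D, another surface target in myeloma, fell in both lines, from 162 ± 7.87 to 46.4 ± 5.78 CPM and from 8.12 ± 0.689 to 0.506 ± 0.201 CPM. The plasma cell markers JCHAIN and SDC1 also fell in both lines. JCHAIN was at 4660 to 4940 CPM with DMSO and 1710 to 2040 with carfilzomib in H-929, and at 3680 to 4450 and 435 to 630 in RPMI. SDC1 was at 484 to 538 and 190 to 251 CPM in H-929, and at 377 to 396 and 88.8 to 106 in RPMI. IRF4, the factor on which myeloma cells depend, fell by 0.76 ± 0.07 and 0.53 ± 0.07, and the difference of -0.23 ± 0.10 was not called (adjusted p = 0.091). Some alternative fits did call it. MYC, its target, was at 861 ± 25.4 and 771 ± 74.5 CPM in H-929, with no change called, and fell from 1070 ± 26.8 to 509 ± 35.4 CPM in RPMI, a difference of 0.92 ± 0.10 (adjusted p = 1.31e-06). In bulk RNA, fewer cells of a state and less RNA per cell cannot be told apart.

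Metabolic and replication lists held single genes of both kinds. In cholesterol synthesis, IDI1 and TM7SF2 rose in H-929 and fell in RPMI, TM7SF2 from 14.7 ± 1.69 to 30.9 ± 3.41 CPM and from 45.6 ± 0.91 to 18.9 ± 2.43 CPM, while HMGCS1 and STARD4 did the reverse. In glycolysis, PKM, which makes pyruvate, rose from 1080 ± 23.5 to 1570 ± 81.6 CPM and fell from 3750 ± 9.69 to 2660 ± 92.1 CPM, and ALDOC changed by 0.65 and -1.54. The ribonucleotide reductase subunits RRM1 and RRM2, which supply DNA precursors, fell in H-929 by 0.56 and 0.73 on the log2 scale and rose in RPMI by 0.87 and 0.48, with differences of -1.43 ± 0.10 and -1.21 ± 0.12. Most of the 33 replication genes fell in both lines. In H-929 24 fell and 2 rose, and in RPMI 19 fell and 6 rose, with medians of -0.56 and -0.36. RRM1 and RRM2 were thus exceptions in RPMI. The difference was called lower in H-929 for 18 of the 33 and higher for 5 (18.4% and 20.2% of all rows).

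Other lists are given by their counts, against 20.2% called higher and 18.4% lower over all rows. Mitosis genes had 5 called higher and 10 lower of 30, and MYC network and ribosome biogenesis genes 5 and 8 of 30. With the GC offset these counts were 6 and 5, and 6 and 11, so the lean of the mitosis genes was not kept. Most mitosis genes fell in both lines, 22 in H-929 and 17 in RPMI. Lysosomal genes had 6 called higher and 10 lower of 27, nuclear-encoded OXPHOS genes 8 and 2 of 26, and death receptor genes 1 and 4 of 12. Replication-dependent histone genes fell in both lines, 23 of 31 in H-929 and 24 in RPMI, with 14 called higher in H-929 and 4 lower, and near-identical histone genes make single rows uncertain.

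Genes were also selected, 12 per direction, by the smaller of their absolute log2 fold changes in the 2 lines, so these values are a description. Eligible were genes whose higher group averaged 50 counts or more in both lines, no overlap of treated and DMSO libraries, an identifier on 1 row and no name of a clone, noncoding RNA or pseudogene. On the side up in H-929 that left 241 of the 505, so larger changes exist among scarcer or unnamed genes. On the side of H-929, SHANK1, a scaffold protein of synapses, was at 0.0561, 0.265 and 0.403 CPM with DMSO (1, 5 and 6 counts) and at 5.97, 12.2 and 6.88 CPM with carfilzomib. In RPMI it went from 7.1, 8.43 and 8.87 to 0.894, 0.569 and 0.946 CPM. Its groups were apart in both lines and its levels changed places. LBH, a transcription cofactor of development, rose from 2.13, 2.65 and 1.54 to 10.8, 9.39 and 9.84 CPM in H-929 and fell from 98.1, 137 and 138 to 16, 16.2 and 15.7 CPM in RPMI. TFAP2C, a factor of epithelial and germ cells, rose from 5.88 ± 0.757 to 18.3 ± 2.36 CPM and fell from 18.3 ± 2.21 to 6.28 ± 0.224 CPM.

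The remaining 8 genes chosen in that direction apart from BIRC3 were MEGF6, MAGI2, TEX14, PCDH1, PPL, ATP6V1C2, NT5M and ANO9. All 12 together had log2 fold changes of 1.27 to 5.11 in H-929 and -3.33 to -1.19 in RPMI. PCDH1, a protocadherin, and PPL, a desmosomal plakin, were low in H-929, at 1.82 ± 0.522 and 2.15 ± 0.499 CPM with DMSO, and abundant in RPMI, at 102 ± 18 and 74.1 ± 6.04 CPM. KRT7, an epithelial keratin, had the same pattern, from 0.442 ± 0.398 to 3.38 ± 0.365 CPM and from 12.6 ± 0.378 to 2.59 ± 0.551 CPM. Of the 5 epithelial markers tested, 3 rose and none fell in H-929, and 2 rose and 3 fell in RPMI. The keratins KRT18 and KRT8 rose in both lines, KRT18 in RPMI from 91.6 to 98.7 CPM with DMSO to 124 to 142 CPM. EPCAM was at most 0.053 CPM in H-929. In RPMI it was at 108 to 109 CPM with DMSO and 60.7 to 71.2 CPM with carfilzomib. CD68, a lysosomal protein of myeloid cells, rose from 30.2 ± 1.25 to 59.9 ± 4.3 CPM and fell from 55.3 ± 3.57 to 33.2 ± 2.75 CPM. The summed level of the 7 epithelial markers ran from 41.5 to 54.1 CPM with DMSO and from 90.4 to 98 CPM with carfilzomib in H-929, and from 218 to 223 and 191 to 221 CPM in RPMI, with KRT20 at 0 in each group. The 9 myeloid markers summed to 32.8 to 34.2 and 64.5 to 70.9 CPM in H-929 and to 54.7 to 62.1 and 35.8 to 42.1 CPM in RPMI, with S100A8 at 0 in both RPMI groups and CD68 the most abundant.

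On the other side, the 12 genes selected by the same rule from 515 eligible genes of the 605 had log2 fold changes of -1.85 to -0.93 and 0.87 to 3.49. By their changes alone IFI44L (-2.07 and 5.43) and H1-5 (-1.31 and 4.17) would rank among them, but in at least 1 line they averaged fewer than 50 counts in both groups. Of the 12, MX1, MX2, OAS2, PHGDH, PSAT1, ALDH1L2, WARS1 and GARS1 belong to the lists above. The other 4 were MAP3K20, a kinase that senses stalled ribosomes, TMEM154, ASPHD2 and ZFAND1, which helps to clear stress granules with the proteasome. MAP3K20 was at 9.36, 11.5 and 7.45 CPM with DMSO and 4.79, 3.76 and 3.49 CPM with carfilzomib in H-929, and at 0.775, 0.847 and 0.941 and then 3.63, 3.32 and 4.55 CPM in RPMI. ZFAND1 fell from 72.4 ± 5.55 to 36.8 ± 4.36 CPM and rose from 27.7 ± 0.524 to 51.1 ± 1.65 CPM. H1-5, a linker histone, fell in H-929 from 180, 213 and 195 to 73, 80.5 and 84 CPM, and in RPMI it had 2 counts in all 3 DMSO libraries and 35 in the 3 carfilzomib libraries. That is a ratio of 22.6 (exact 95% interval 5.8 to 194, counting error only), in a gene nearly silent in RPMI.

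Some genes rose in both lines with a gap of many fold. ERBB3, a receptor of the EGFR family, rose from 0.664 ± 0.3 to 50.2 ± 11.4 CPM in H-929 and from 1.74 ± 0.371 to 5.86 ± 1.53 CPM in RPMI. FUT6, a fucosyltransferase, rose from 0.459 ± 0.144 to 34.7 ± 5.72 CPM and from 4.11 ± 0.495 to 6.98 ± 2.1 CPM, and the Notch ligand DLL4 and the actin bundler FSCN1 reached 19 ± 3.63 and 17.7 ± 4.6 CPM in H-929 against 4.42 ± 1.24 and 6.54 ± 1.14 CPM in RPMI. POU3F1 and ASTL had 3 and 2 counts in all DMSO libraries of H-929, against 505 and 210 with carfilzomib, ratios of 296 (exact 95% interval 101 to 1.44e+03) and 185 (50.6 to 1.54e+03). The difference of POU3F1, 4.61, was not called without replicate 3 of RPMI with DMSO (2.94, adjusted p = 0.158). In the other direction CLU, the extracellular chaperone clusterin, rose from 42.2 ± 3.34 to 151 ± 12.9 CPM in H-929 and from 28.4 ± 7.11 to 915 ± 6.47 CPM in RPMI. INHBE, a hepatokine raised in the integrated stress response, rose from 13.4 ± 3.87 to 25.7 ± 2.76 CPM and from 1.59 ± 0.481 to 28.2 ± 2.92 CPM. EGLN3, an oxygen-sensing hydroxylase, rose from 0.706 ± 0.353 to 20.6 ± 3 CPM and from 22.5 ± 2.04 to 41.5 ± 1.92 CPM, a difference of 4.02 ± 0.27 (adjusted p = 4.16e-09).

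The other 6 lines of the study, whose libraries played no part in choosing the genes, gave values for the same sets. Of the genes down in H-929 and up in RPMI, carfilzomib raised 63.2% and lowered 15.8% in H-1299, where it raised 29.9% and lowered 31.3% of all genes tested. In CAPAN-2 the shares were 59.3% and 14% (25.7% and 26.8% of all), in H-23 45.1% and 12.1% (17.7% and 16.2%), and in PANC-1 35.2% and 23.2% (20.5% and 18.2%). The colon lines leaned the other way, with 10.5% raised and 23.7% lowered in DLD-1 (10.9% and 12.1% of all) and 1.62% and 9.16% in RKO (3.61% and 5.28%). Of the genes up in H-929 and down in RPMI, 16.7% were raised and 52.4% lowered in H-1299, 18.7% and 41.1% in CAPAN-2, and 11.5% and 29.7% in H-23. In PANC-1 24.4% were raised and 20.4% lowered, in DLD-1 18.5% and 10.1%, and in RKO 5.4% and 2.27%. These are shares of genes, which are not independent of each other, and the difference from the background was not tested.

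**Figure D5:**
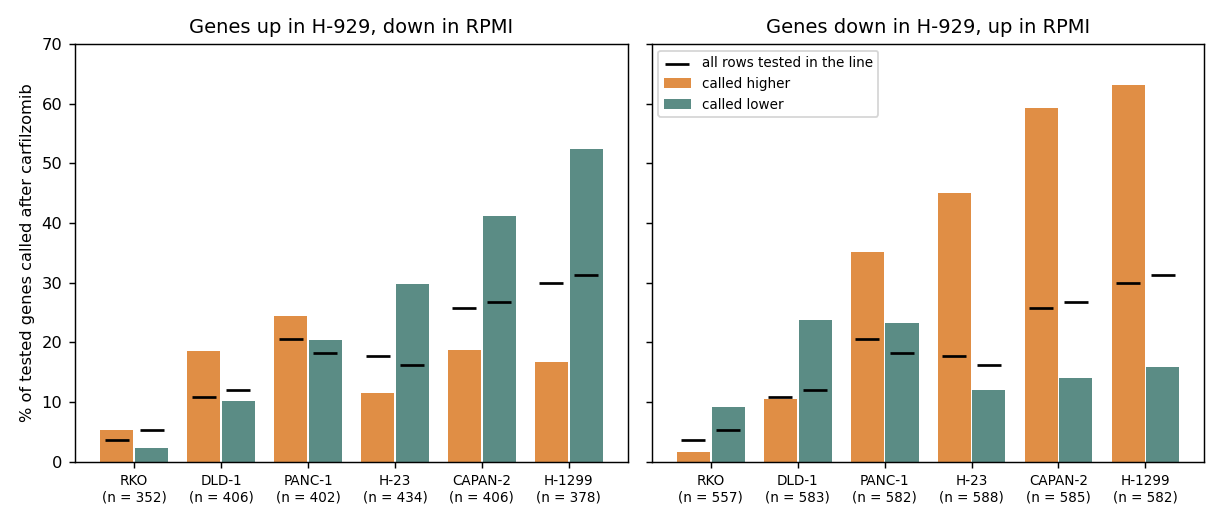
Share of the genes tested (y axis, %) that carfilzomib raised (orange) or lowered (green) in each of the 6 other lines (x axis, genes tested in brackets), for the 2 opposite sets, with black lines at the same shares over all genes tested in that line. In the right panel the orange bars reach 63.2% in H-1299 and 59.3% in CAPAN-2, and in RKO and DLD-1 the green bars are the taller ones.

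Single genes did not all follow their set. PHGDH was called lower in all 6 other lines, by 0.48 to 0.97 on the log2 scale, and PSAT1 was called lower in 4 of 6 and higher in none. AARS1 was called lower in 5 of 6 and higher in none, GARS1 lower in 3 and higher in none, while WARS1 was called higher in 3 and lower in 1. Of the integrated stress response list, 18 of 20 genes tested fell in DLD-1, 14 of 19 in H-1299 and 14 of 20 in PANC-1, and 9 and 6 of 19 fell and rose in CAPAN-2, 6 and 5 of 19 in H-23 and 4 and 1 of 18 in RKO, beside the shares of all genes given above. HSPA5 was called higher in H-1299 (0.97), CAPAN-2 (0.82) and H-23 (0.17), and lower in PANC-1 (-0.14). Coat and Golgi genes rose for 22 and fell for 2 of 28 in H-1299, 22 and 1 of 27 in CAPAN-2, 19 and 0 of 28 in H-23, 12 and 7 of 28 in PANC-1, 3 and 2 of 27 in DLD-1 and 0 and 0 of 27 in RKO. MX1 was called higher in CAPAN-2 (1.63) and PANC-1 (0.18), and BIRC3 was called higher in RKO (1.27), PANC-1 (0.70) and DLD-1 (0.53) and lower in H-1299 (-0.83). Each of the other lines was tested on its own 6 libraries with its own filter, so these values stand beside those of H-929 and RPMI and were not tested against them.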

How the data were processed

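RNA-seq read counts per gene of 12 libraries were used, 3 each of H-929 and RPMI with DMSO or carfilzomib, and the other 36 libraries only for the values in the 6 other lines. The authors deposited whole-number counts, not normalized. Per the submitters' processing notes, bcl2fastq 2.19, FastQC, Trimmomatic, HISAT2 and DESeq2 were used with hg38, and per the labels' protocols libraries were made from total RNA with a stranded kit. The counter, annotation and strand setting are not given in the sources used here.

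The 8 rows of HSPA1A and HSPA1B were summed. Of 33892 rows, 4803 carry an identifier that also stands elsewhere in the table, and these are called uncertain where named. Rows passing edgeR's filterByExpr were normalized by TMM and fitted with edgeR 4.0.16 (R 4.3.3), glmQLFit on the 4 groups, with the interaction as 1 contrast and Benjamini-Hochberg adjustment over all 17923 rows. Standard errors are the absolute log2 fold change divided by the square root of F. CPM use TMM-scaled library sizes and are given as mean ± SD. Depth of 9.12 to 36.6 M counts limits precision for genes of few counts, and ratios on 1 to 3 counts carry exact intervals for counting error only. The procedure was tested on simulated data.

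Named genes were, per direction, the 12 opposite genes with the largest smaller absolute log2 fold change and the 6 genes of the same direction with the largest difference, both only among genes whose higher group averaged 50 counts or more in both lines, libraries of treated and DMSO groups that did not overlap, an identifier on 1 row and no clone, noncoding or pseudogene name, and of each list the opposite members and up to 4 others with the largest difference, plus 9 single genes or sums. The genes and lists were chosen with earlier results of these data known. Promoter sequences and motif shares are from RefSeq, GRCh38.p14. Alternatives were DESeq2 1.42.0, other filters and normalizations, all 48 libraries, a fold threshold, thinning to equal depth, leaving out libraries, a replicate block and a GC offset.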

Additional observations from a re-analysis of the deposited data

Results flagged for a closer look

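The results below were singled out because the response to the same contrast, carfilzomib against DMSO, differed between the lines in edgeR's test of the difference itself. The genes were selected by their size, so the values describe them. Over all rows the response was called higher in H-929 for 3616 genes and lower for 3305.

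Among genes that rose in H-929 and fell in RPMI, the log2 response difference was 8.45 for SHANK1, 5.19 for LBH, 4.84 for TEX14, 4.27 for MEGF6 and 4.13 for MAGI2. It was 3.48 for ATP6V1C2, 3.32 for BIRC3, 3.22 for PCDH1, 3.18 for TFAP2C, 2.83 for NT5M, 2.68 for PPL and 2.46 for ANO9.

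Among the genes of this selection, limited to genes whose higher group averaged 50 counts or more in both lines, that fell in H-929 and rose in RPMI, the interferon-stimulated genes were at -4.84 for MX1, -4.07 for MX2 and -3.70 for OAS2. The stress kinase gene MAP3K20 was at -3.37. The serine, folate and tRNA charging genes PHGDH, PSAT1, WARS1, ALDH1L2 and GARS1 were at -2.94, -2.67, -2.39, -2.15 and -2.11. TMEM154, ASPHD2 and ZFAND1 were at -2.50, -2.04 and -1.86.

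Among genes that rose in both lines, the difference was 6.08 for ASTL, 5.43 for FUT6, 4.87 for DLL4, 4.61 for POU3F1, 4.46 for ERBB3 and 4.29 for FSCN1. In the other direction it was -3.84 for RBM11, -3.70 for IFIT2, -3.60 for SSX1, -3.27 for INHBE, and -3.15 for CXCL8 and for CLU.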

How the results depend on the processing

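The counts of 3616 genes higher and 3305 lower in H-929, and of 505 and 605 genes in opposite directions, stayed within 1.5 times under DESeq2 size factors, library totals, DESeq2's Wald test, a mean of at least 50 counts, both treatments of shared identifiers and the GC offset. Thinning every library to the lowest total gave 3043, 2963, 441 and 554. Testing against a fold change of 1.5 gave 1612, 968, 131 and 30. With no filter on low counts, 952 genes fell in H-929 and rose in RPMI, and the balance turned to 2915 higher and 4677 lower. A fit of all 48 libraries gave 1033 such genes. The cause of these moves was not tested. Leaving out single libraries gave 3066 to 3556, 2963 to 3392, 406 to 511 and 510 to 634, and leaving out a replicate number from all 4 groups gave 2551 to 2702, 2359 to 2792, 337 to 368 and 368 to 487. Of 174 named genes, 171 were called, and 4575 of 4682 values of their differences kept direction and call. DDIT3, at -0.02, ran down to -0.21 with no filter and -0.11 without replicate 3 of H-929 with carfilzomib, and turned to 0.05 with a mean of at least 50 counts, 0.09 after thinning, 0.08 without replicate 1 of H-929 with DMSO, and 0.03 with the GC offset, without replicate 2 of H-929 with carfilzomib, without replicate 2 of RPMI with DMSO, and without replicate numbers 1 or 2. XBP1 turned to 0.05 with the GC offset. In edgeR it was called with no filter (-0.37, adjusted p = 0.00475) and with all 48 libraries (-0.28, adjusted p = 0.00896). IRF4 was called in edgeR with no filter (-0.41, adjusted p = 0.00127) and with all 48 libraries (-0.32, adjusted p = 0.0314). It was also called by DESeq2's Wald test (-0.26, adjusted p = 0.0446), and in edgeR without replicate 1 of H-929 with carfilzomib or replicate 3 of RPMI with carfilzomib.

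With the replicate number as a block the counts were 3458, 3280, 497 and 598. Same-numbered libraries had correlations of -0.02 to 0.07 in their deviations, and not every library correlated best with its own number. Such small values from 3 replicates per group cannot decide whether the numbers pair the samples, and the libraries were treated as unpaired. The GC offset was chosen after seeing the data. Depth limits genes of few counts most, and doses, growth state and strand setting are not known here.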
